A study of Mus musculus with 2 samples.

Results

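The let-7 family of microRNAs was examined in mouse liver at embryonic day 13.5. Small RNA of total liver was sequenced as 2 libraries, numbered by the labels as biological replicates 1 and 2, each from its own biosample of pooled male and female B6NCrl embryos that were not described as treated. RNA below 30 bases had been selected, and reads were counted on 1973 microRNA genes of the mouse build mm10. The family was taken as 10 listed rows of these tables: Mirlet7g, Mirlet7i, Mirlet7d, Mir98, Mirlet7f-2, Mirlet7b, Mirlet7a-1, Mirlet7c-1, Mirlet7c-2 and Gm25927. The last is an annotated gene on the other strand of Mirlet7e, so its reads on the opposite strand were used and stand for Mirlet7e. The study has 1 group, so the family is described by its levels, its make-up and the agreement of its replicates.

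A microRNA is cut from a hairpin precursor as a short strand from the 5p or the 3p arm, and the bases of its seed, positions 2 to 8, pair with target messengers. The let-7 family is known as a brake on growth and on fetal gene programmes, acting on messengers such as Hmga2, Ras and Myc. In fetal cells the RNA-binding protein Lin28 blocks the processing of let-7 precursors, and in the blood-forming fetal liver this pathway is known for keeping blood progenitors in a fetal state. The messengers and Lin28 itself were not measured here.

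The mature 5p sequences of the family (RefSeq, GRCm38.p6) are shown because their likeness decides which reads can be placed on a single gene. Capitals mark the seed. Positions are counted from 1 at the 5′ end.
let-7g-5p (Mirlet7g): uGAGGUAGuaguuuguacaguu
let-7i-5p (Mirlet7i): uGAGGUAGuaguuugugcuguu
let-7d-5p (Mirlet7d): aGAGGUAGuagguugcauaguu
miR-98-5p (Mir98): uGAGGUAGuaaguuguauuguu
let-7e-5p (Mirlet7e, counted opposite Gm25927): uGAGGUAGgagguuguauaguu
let-7f-5p (Mirlet7f-2): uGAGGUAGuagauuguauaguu
let-7b-5p (Mirlet7b): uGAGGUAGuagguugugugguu
let-7a-5p (Mirlet7a-1): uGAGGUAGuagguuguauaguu
let-7c-5p (Mirlet7c-1 and Mirlet7c-2): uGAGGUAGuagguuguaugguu

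All 10 members matched a RefSeq hairpin and carry the seed GAGGUAG. Each 5p strand is 22 bases long, so levels were not divided by length. Against let-7a, the sequences differ by 1 to 4 bases, all outside the seed. Single bases set let-7e (U9G), let-7f (G12A) and let-7c (A19G) apart from it. let-7g differs by G12U and U18C, let-7d by U1A and U16C, miR-98 by G11A and A19U, and let-7b by A17G and A19G. let-7i is the most distant from let-7a, with G12U, A17G, U18C and A19U.

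**Figure D1:**
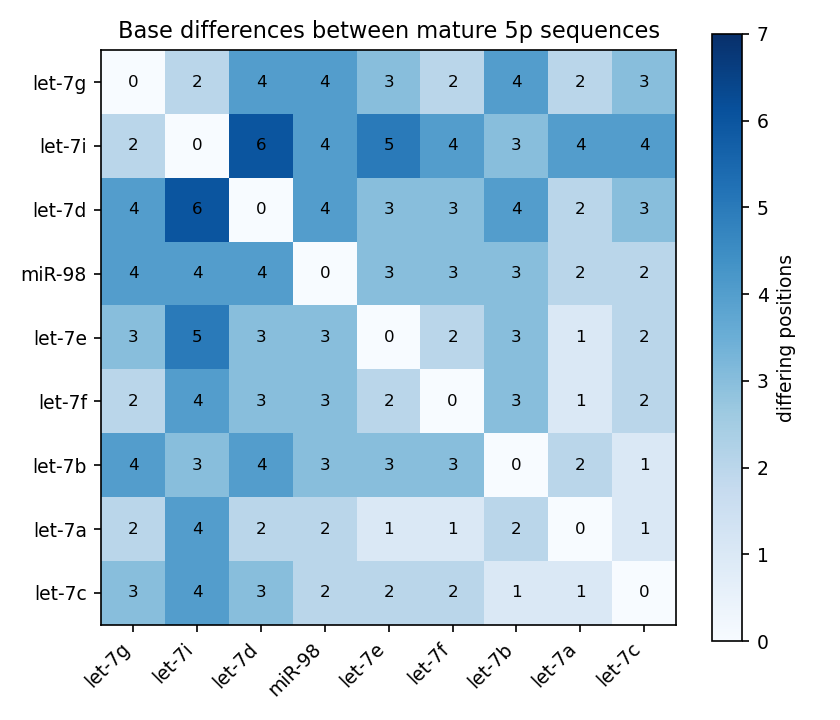
Number of differing positions between each pair of mature 5p sequences of the family, with the sequences in order of the level of their genes on both axes. let-7a, let-7c, let-7e and let-7f form pairs 1 or 2 bases apart, while let-7i and let-7d differ at 6 positions.

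The liver libraries gave 2612528 counts in replicate 1 and 4295639 in replicate 2, and levels are given as counts scaled to a total of 1000000 (CPM). Summed hepatocyte markers (Mir122 and Mir192) stood at 82316 and 82882 CPM, and the endothelial marker Mir126a at 57390 and 54432 CPM. The erythroid markers (Mir451a, Mir144 and Mir486) together stood at 17954 CPM in replicate 1 but at 32966 CPM in replicate 2. Mir451a carried this difference, at 10729 CPM in replicate 1 but 26288 CPM in replicate 2, while Mir144 at 6393 and 5861 CPM and Mir486 at 832 and 818 CPM were not lower in replicate 1. Myeloid Mir223 stood at 10001 and 10142 CPM, and striated muscle markers, nearly all of it Mir206, at 870 and 521 CPM. Neural markers stood at 3.06 and 4.66 CPM, with 4 of the 5 neural genes in the tables at 0. These counts leave out reads that map to several places. Whether strands of the marker genes also lie in another hairpin was not looked up. Low counts and counts of 0 therefore do not show absence of a strand. Defining markers of liver and of blood cells were thus present.

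The 10 let-7 genes held 8.61% of counts in replicate 1 (95% exact binomial interval 8.58% to 8.64%) and 7.59% in replicate 2 (7.56% to 7.61%), or 8.10% ± 0.722 (SD, n = 2). All 10 had at least 10 counts in each library, as did 368 of the 1973 genes (18.7%). Their levels spanned a 3349-fold range between Mirlet7g and Mirlet7c-2. The first 4 genes held 95.2% of the let-7 counts in replicate 1 and 94.5% in replicate 2. With all reads that mapped to several places added to the total and none to the family, the family held 4.14% and 3.92%. Such reads were not split into let-7 and others, so these values are not shares of microRNA counts.

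Mirlet7g, the leading member, lies on chromosome 9 at 106178840 to 106178927 (mm10, plus strand), in an intron of Wdr82, which encodes a subunit of a histone methyltransferase complex. It had 131501 counts in replicate 1 and 187762 in replicate 2, which gave 50335 and 43710 CPM, or 47022 ± 4684 CPM (SD, n = 2). In these counts it was the third most abundant of all genes in replicate 1 and took place 4 in replicate 2. Reads that map to several places are left out, so genes with many such reads may be ranked too low. Mirlet7g made up 58.0% ± 0.608 of the let-7 counts, which leave out the same reads.

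Mirlet7i lies on chromosome 10 at 122985640 to 122985724 (minus strand), in an annotated exon of the transcribed pseudogene D630033A02Rik. It stood at 21730 CPM in replicate 1 and 19171 CPM in replicate 2, and Mirlet7g exceeded it by 2.32-fold and 2.28-fold. Its share of the family was nearly equal in the libraries, at 25.24% and 25.27%. The 5p strands of these 2 leading genes share G12U and U18C against let-7a, and no other member has either of them.

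Mirlet7d (chromosome 13, 48536012 to 48536114, minus strand) stood at 5903 and 5204 CPM. Mir98 (chromosome X, 151913214 to 151913321, plus strand) stood at 4021 and 3593 CPM. Mirlet7d exceeded Mir98 by 1.47-fold in replicate 1 and 1.45-fold in replicate 2, the smallest step in the order of the members. Reads opposite Gm25927 (chromosome 17, 17830343 to 17830459), at the position of Mirlet7e (17830352 to 17830444, plus strand), gave 5125 and 8897 counts, against 0 and 0 on the strand of Gm25927. They came to 1962 and 2071 CPM.

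Mirlet7f-2 (chromosome X, 151912346 to 151912428) stood at 1234 and 1188 CPM and Mirlet7b (chromosome 15, 85707319 to 85707403, plus strand) at 725 and 710 CPM. The last 3 members were rare. Mirlet7a-1 (chromosome 13, 48538179 to 48538272) had 353 and 756 counts, Mirlet7c-1 (chromosome 16, 77599657 to 77599750) had 96 and 168, and Mirlet7c-2 (chromosome 15, 85706603 to 85706697) had 32 and 68. Their means were 156, 37.9 and 14.0 CPM. The order of all 10 members was the same in both libraries, and the libraries of neighbours in this order did not overlap in any of the 9 pairs.

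**Figure D2:**
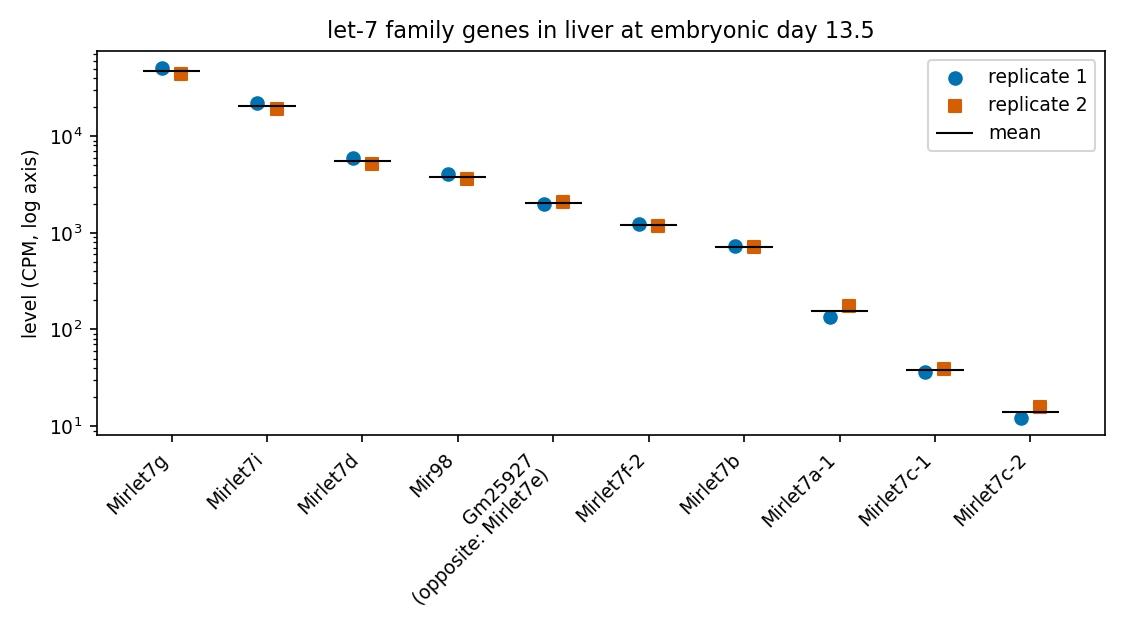
Level of each let-7 gene in CPM on a log axis, with circles for replicate 1, squares for replicate 2 and a bar for their mean. Levels step down without overlap from Mirlet7g at 47022 CPM to Mirlet7c-2 at 14.0 CPM.

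The 3 rare members were all genes whose 5p strand also lies in another hairpin. The let-7a, let-7c and let-7f strands each lie in 2 hairpins of the RefSeq table, and the other 6 lie in 1. The 6 members with a strand of their own held 98.4% of let-7 counts in replicate 1 and 98.1% in replicate 2. The counts leave out reads that map to several places, so this share does not measure the mature strands. Their mean levels had a median of 4680 CPM, against 96.7 CPM for the 4 members with a copy. The ranges overlapped, since Mirlet7f-2 at 1211 CPM lay above Mirlet7b at 717 CPM.

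Reads that map to several places are counted apart from the genes. They came to 2819005 in replicate 1 (36.7% of reads) and 4017413 in replicate 2 (32.0%), which is 12.5 and 12.3 for every let-7 count. How many of them were let-7a, let-7c or let-7f cannot be told from the tables, so the levels of these genes are uncertain and their low place in the order is not a measure of the mature strand. The family share, the share of Mirlet7g and its place above these genes rest on the same counts, so they carry this limit too. The 3p strands are shown for these genes because they decide whether the other arm can be placed.
let-7a-1-3p (Mirlet7a-1): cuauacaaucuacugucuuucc
let-7c-2-3p (Mirlet7c-2): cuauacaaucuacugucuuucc
let-7c-1-3p (Mirlet7c-1): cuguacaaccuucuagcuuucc
let-7f-2-3p (Mirlet7f-2): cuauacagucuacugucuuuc

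Mirlet7a-1 and Mirlet7c-2 have the same 3p strand, so both arms of each lie in 2 hairpins. The longest run of bases that they share is 26 bases. The 3p strands of Mirlet7c-1 and Mirlet7f-2 lie in 1 hairpin each, and their longest runs shared with another hairpin are 23 and 22 bases. Among the members with a strand of their own, the longest shared run was 14 bases for Mirlet7d, 17 for Mir98 and Mirlet7e, and 19 for Mirlet7g, Mirlet7i and Mirlet7b. The counts do not separate the arms of a hairpin.

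Several let-7 genes are neighbours on 1 strand and may be cut from a shared primary transcript. At the chromosome 13 locus, where all genes overlap exons of the non-coding gene 6720427I07Rik, Mirlet7d exceeded Mirlet7a-1 by 43.7-fold in replicate 1 and 29.6-fold in replicate 2. Reads opposite Gm24111, at the position of Mirlet7f-1 between them, stood at 86.9 and 94.98 CPM. At the chromosome 15 locus, in the non-coding gene Lncppara, Mirlet7b exceeded Mirlet7c-2, which lies 716 bases upstream, by 59.2-fold and 44.8-fold. On chromosome X, in an intron of the ubiquitin ligase gene Huwe1, Mir98 exceeded Mirlet7f-2, 868 bases upstream, by 3.26-fold and 3.03-fold. At each of these 3 loci the gene with a strand of its own was higher than those with a copy, in both libraries. Reads of a copied strand that map to several places are missing from these counts. The ratios therefore do not measure how much mature strand each gene gives.

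The let-7 genes on chromosome 16, on chromosome 17 and at Mirlet7a-2 on chromosome 9 lie near miR-99 or miR-100 and miR-125 genes, which are abundant in blood stem cells. Mir99a stood at 25432 and 22793 CPM, against 36.7 and 39.1 CPM for Mirlet7c-1, which starts 721 bases after it, both within introns of Mir99ahg. Mir125b-2, which starts 47337 bases after Mir99a in the same host gene, stood at 176 and 184 CPM. In Spaca6 on chromosome 17, Mir99b stood at 9358 and 9008 CPM, Mirlet7e at 1962 and 2071 CPM and Mir125a at 988 and 1272 CPM, each gene lower than the one before it in both libraries. On chromosome 9, Mir100 stood at 4144 and 3556 CPM and Mir125b-1 at 170 and 169 CPM. Mirlet7a-2, which lies between them and is not among the 10 members, stood at 150 and 157 CPM. The levels of Mirlet7c-1 and Mirlet7a-2 carry the limit given above for copied strands. Whether the strands of the miR-99, miR-100 and miR-125 genes also lie in another hairpin was not looked up, so their levels may lack reads too.

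**Figure D3:**
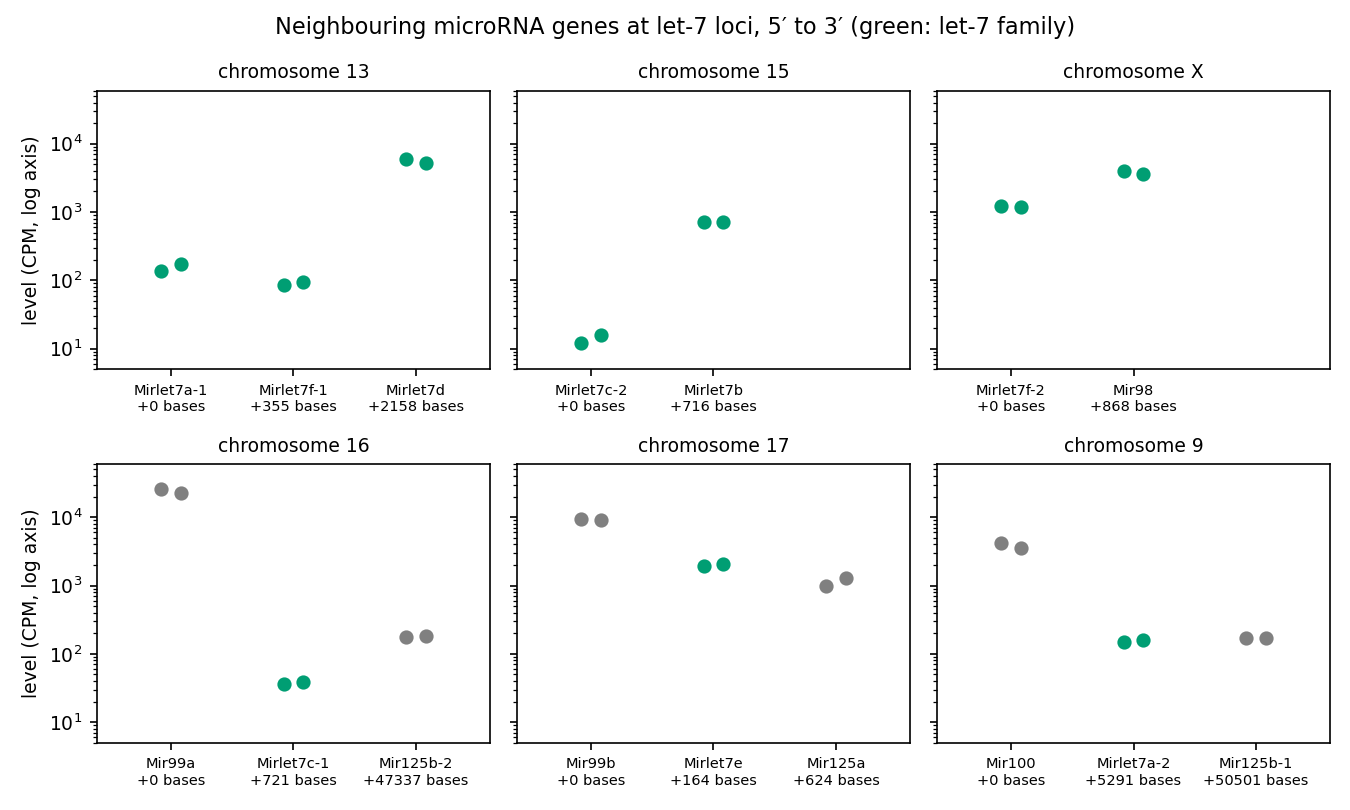
Levels in CPM on a log axis of neighbouring microRNA genes at 6 let-7 loci, in 5′ to 3′ order with the distance from the first gene, with the left point of each pair for replicate 1 and the right for replicate 2. At the chromosome 13, 15 and X loci Mirlet7d, Mirlet7b and Mir98 stand above their let-7 neighbours in these counts, which leave out reads that map to several places.

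The bases between the 5p and 3p strands of the hairpins of 9 members, all but Mir98, were searched for GGAG and GAU, letters known from the binding of Lin28 to let-7 precursors. The search covered the strand of the hairpin. The 3 members with the highest levels and the 2 of the 9 without GGAG are shown, with GGAG in capitals.
Mirlet7g: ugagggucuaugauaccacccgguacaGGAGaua
Mirlet7i: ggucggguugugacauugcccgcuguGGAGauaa
Mirlet7d: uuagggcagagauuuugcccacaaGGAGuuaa
Mirlet7b: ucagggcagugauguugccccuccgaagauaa
Mirlet7c-2: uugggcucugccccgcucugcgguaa

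GGAG was present in 7 of the 9 members, 3 or 4 bases before the 3p strand. It was present in 8.09% of 556 hairpins with both arms among the genes of the tables, in which these members are included. GAU was present in 7 of the 9 members and in 16.01% of these hairpins. In 5 members a GAU overlaps GGAG, and in 3 members, Mirlet7g, Mirlet7d and Mirlet7b, a GAU lies elsewhere in the loop. The levels of the members with and without GGAG overlapped: the 7 genes with GGAG ran between 37.9 and 47022 CPM, and the 2 without it stood at 14.0 CPM (Mirlet7c-2) and 717 CPM (Mirlet7b). A match of letters is not a measured binding site.

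For each gene, the split of its counts between the 2 libraries was set against the split of the library totals in an exact binomial test (two-sided), and p-values were adjusted for the 712 genes that had a count (Benjamini-Hochberg). This test sets 2 libraries against each other, not conditions, and it takes reads as independent, so spread between biosamples can also lead to a call. At an adjusted p under 0.05, 6 of the 10 members were called, against 20.2% of all genes tested. Called genes are more frequent at high counts: of 136 genes with at least 1000 counts in each library 66.2% were called, and of the 7 members among them 5. Of the members, 4 were called as higher in replicate 1 (11.5% of all genes) and 2 as lower (8.71%). Under TMM scaling the members kept these counts, whereas 66 of all genes were called as higher and 73 as lower, in place of 82 and 62, and under DESeq2 scaling 65 and 71.

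The higher ones were the 4 most abundant members. The log2 ratio of replicate 1 to replicate 2 was 0.20 for Mirlet7g (95% counting interval 0.19 to 0.21), 0.18 for Mirlet7i (0.17 to 0.20), 0.18 for Mirlet7d (0.15 to 0.21) and 0.16 for Mir98 (0.13 to 0.20). These are ratios of 1.15, 1.13, 1.13 and 1.12, and the 4 intervals overlapped. Mirlet7e, with a log2 ratio of -0.08 (adjusted p = 0.0115, exact binomial test), and Mirlet7a-1, with -0.38 (adjusted p = 0.000292, exact binomial test), were lower in replicate 1. Both arms of Mirlet7a-1 lie in 2 hairpins, so its ratio covers only the reads that could be placed on it alone. Mirlet7a-2, with the same 5p strand, had a log2 ratio of -0.06 and was not called.

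Mirlet7f-2, Mirlet7b, Mirlet7c-1 and Mirlet7c-2 had log2 ratios of 0.06, 0.03, -0.09 and -0.37 and were not called. The interval for Mirlet7c-2 ran between -1.02 and 0.26, so a difference could hardly be shown on 32 and 68 counts. The median log2 ratio of the 10 members was 0.04, beside 0.03 for the 560 genes with counts in both libraries and 0.04 for the 136 genes with at least 1000 counts in each.

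**Figure D4:**
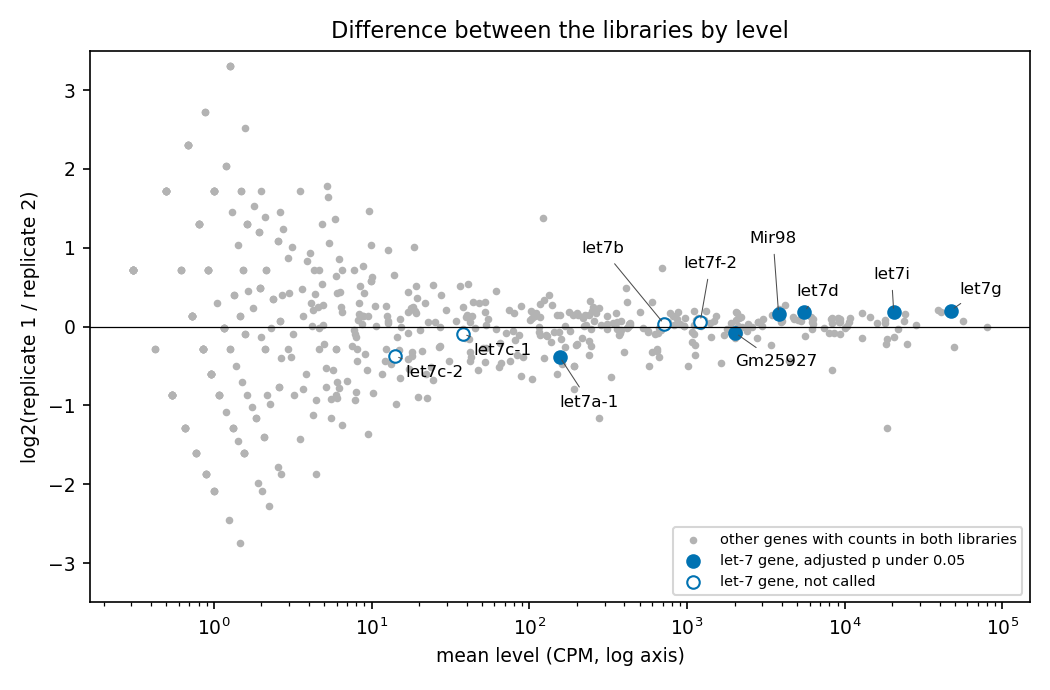
Log2 ratio of replicate 1 to replicate 2 against the mean level in CPM (log axis) for genes with counts in both libraries, with filled circles for let-7 genes at an adjusted p under 0.05 and open circles for the other let-7 genes. Mirlet7g, Mirlet7i, Mirlet7d and Mir98 lie between 0.16 and 0.20, while Mirlet7a-1 lies at -0.38.

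The summed family was 1.13 times as high in replicate 1. Of the erythroid markers, Mir451a was lower in replicate 1 (log2 ratio -1.29), Mir144 was higher (0.13, adjusted p = 7.37e-17, exact binomial test), and Mir486, at 0.03, was not called. With the 3 erythroid genes left out of the total, the family held 8.77% in replicate 1 and 7.85% in replicate 2, a ratio of 1.12. With reads mapped to several places in the total and none of them in the family, the ratio was 1.06. The part of the cell make-up of the libraries in this difference was not tested, and fewer cells of a type cannot be told apart from less microRNA per cell.

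Of the 6 cluster partners, 4 were called, against 20.2% of all genes and 66.2% of those with at least 1000 counts in each library, as these 4 had. Mir99a, Mir99b and Mir100 were called as higher in replicate 1, with log2 ratios of 0.16, 0.06 and 0.22. The call of Mir99b was lost under TMM scaling (log2 ratio 0.03, adjusted p = 0.0876, exact binomial test) and DESeq2 scaling (adjusted p = 0.0821). Over the other alternatives its adjusted p in this test ran between 1.09e-05 and 0.0296, the latter without the erythroid markers. Mir125a was called as lower, with -0.36, and Mir125b-1 and Mir125b-2 were not called. In the chromosome 17 group the ratios were therefore 0.06 for Mir99b, -0.08 for Mirlet7e and -0.36 for Mir125a.

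The genes outside the family nearest in level over the 2 libraries, by distance in log2(CPM + 1), were Mir335, Mir17 and Mir126a for Mirlet7g, at distances of 0.29 to 0.37. For Mirlet7i they were Mir487b, Mir411 and Mir130a, at 0.05 to 0.22. With 2 libraries this likeness is one of level alone.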

How the data were processed

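The authors deposited raw read counts per gene for each library, on mm10 with GENCODE M4 annotation per the deposited file lists. For the aligner and counter, nothing is given in the sources used here. Each gene was taken by its counts on its own strand, and Gm25927 by those on the opposite strand. Library totals were the sums of these counts, without the rows for unmapped, multiply mapped or unassigned reads, and CPM were scaled to them. No molecular identifiers enter the counts, so intervals cover counting error only. Names and positions came from GENCODE M21 on the same build, which matched 1894 of 1973 genes, and sequences from RefSeq (GRCm38.p6), whose table of 1005 hairpins is not complete. The bases between the arms of Mir98 are not reported here.

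Levels are means ± SD of the 2 libraries. Levels carry no p-value, since the smallest two-sided exact p from 2 samples is 0.5. The labels call the libraries biological replicates but do not say that litters differed. Genes were detected at 10 or more counts in each library. The library test used scipy 1.17.1. It was checked on simulated Poisson counts without spread between biosamples, so the check does not cover such spread. edgeR 4.0.16 (TMM) and DESeq2 1.42.0 gave alternative totals. The members, lists and tests were chosen with earlier results of these data known. The named genes were the members, their cluster partners, genes with the same seed and the 3 nearest in level to each of Mirlet7g and Mirlet7i. Mirlet7a-2 was added after its counts were seen.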

Additional observations from a re-analysis of the deposited data

Results flagged for a closer look

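Reads of 2 further let-7 genes lay outside the 10 members and above the 3 counts that a count of 0 allows at about 95% confidence. Opposite Gm24111, at the position of Mirlet7f-1, the libraries held 227 and 408 reads. On the strand of Gm24111 itself they held 3 and 0. Mirlet7a-2 had 392 and 674 counts. Its 5p strand is that of Mirlet7a-1, so its level is uncertain too.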

How the results depend on the processing

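The family share moved by more than the spread of the replicates under 2 alternatives. Counts from both strands of every gene gave 7.27% in place of 8.10%. Adding reads mapped to several places to the total but not to the family, an alternative chosen after seeing the data, gave 4.03%. The share of Mirlet7g in the family moved to 59.5% with Gm25927 on its own strand, where it has no counts. The share at members with a strand of their own ran between 98.1% and 98.4%, but no alternative placed the reads that map to several places. The members detected ran between 8 (at least 100 counts) and 10. The 6 called members remained 6, with 4 higher and 2 lower in replicate 1, under TMM and DESeq2 scaling, both strands, a minimum of 10 counts in total and totals without erythroid markers, and no member changed direction. Genes called in all ran between 136 and 154. Among the cluster partners, in alternatives chosen after seeing the data, the call of Mir99b was lost under TMM and DESeq2 scaling, and the uncalled log2 ratio of Mir125b-1 (0.0048) turned to -0.023 with TMM, -0.022 with DESeq2 and -0.017 without the erythroid markers. TMM and DESeq2 scaling lower every log2 ratio by 0.027. Of 60 alternative values for member levels, 9 moved by over 1 SD, 8 of them with both strands and 1 from Gm25927 on its own strand. No paired analysis was possible because there is only 1 group. Leaving out a library leaves no library comparison, so none was run. The counts of Mirlet7c-1 and Mirlet7c-2 are too few to bound small differences.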

Other observations

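Apart from the members, Mirlet7f-1 and Mirlet7a-2, the genes Mir1961 and Mir7k (let-7k) carry the let-7 seed in the RefSeq table. Both had rows in the tables and 0 counts in both libraries. At about 95% confidence, the upper limit for a count of 0 is 1.15 CPM (replicate 1) or 0.698 CPM (replicate 2). This holds for reads that map to 1 place.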
